A study of Mus musculus with 8 samples.

Results

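The cyclin-dependent kinase (CDK) inhibitors are the brakes of the cell cycle engine, and 7 of their genes, Cdkn1a, Cdkn1b, Cdkn1c, Cdkn2a, Cdkn2b, Cdkn2c and Cdkn2d, were followed here in mouse hematopoietic stem cells (HSCs) with mutant Nras. They were taken by name: every non-control probe that the arrays annotate with one of these 7 symbols was kept, whatever its signal. That gave 10 probes of 41174, for 7 of 27600 gene names. Of these, 7 probes of 6 genes had enough signal to be tested. Cdkn2a and 2 of the 3 Cdkn1b probes did not.

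Bone marrow HSCs of B6 mice were profiled on 8 Agilent 1-colour arrays. NrasG12D/G12D cells (n = 3) carried the mutation on both alleles and NrasG12D/+ cells (n = 3) on one, and Nras+/+ cells (n = 2) were the controls. G12D is a point mutation that keeps the small GTPase Nras in its active form. The sources used here give no age, number of animals, sort for HSCs or way in which the allele was switched on, and nothing in the labels says that replicates came from different animals. The p-values below therefore describe the spread among these arrays, which may be technical.

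The inhibitors fall into 2 families. The Cip/Kip proteins p21 (Cdkn1a), p27 (Cdkn1b) and p57 (Cdkn1c) bind complexes of cyclins with several CDKs. The INK4 proteins p16 (Cdkn2a), p15 (Cdkn2b), p18 (Cdkn2c) and p19 (Cdkn2d) bind Cdk4 and Cdk6 and keep D-type cyclins from activating them, so that the retinoblastoma proteins stay active and E2F factors stay silent. In HSCs, loss-of-function studies in mice have tied p57 and p27 to quiescence and p18 to the limits of self-renewal, while the Cdkn2a locus is kept silent by Polycomb proteins such as Bmi1. Signalling from mutant Ras can induce p21, p16 and p15 in cultured cells.

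The probe sequences show which piece of each transcript was read. They are given for Cdkn1b and Cdkn2c, whose probes disagree or overlap, and for Cdkn1a, which varied widely between arrays. All are probe sequences from the deposited files, which also give the positions without naming a genome build. For Cdkn1b, the first probe was printed in 10 copies per array and lies in the p27 coding sequence, at chr6:134886778-134886836. The second and the third lie 2503 and 4112 bases downstream of it, at chr6:134889281-134889340 and chr6:134890890-134890949. The third is assigned to the cDNA AK169586 and the other two to the RefSeq transcript NM_009875. The first probe is shown whole and the other two by their first 30 bases.
Cdkn1b A_51_P169173: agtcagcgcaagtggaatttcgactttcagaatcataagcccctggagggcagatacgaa
Cdkn1b A_52_P673863: attagccaagcaaccataagactctagtca
Cdkn1b A_51_P146126: ttcattgcctgtgtatgagaaaaacttgga
The 2 Cdkn2c probes share 40 of their 60 bases, on the minus strand at chr4:109159106-109159165 and chr4:109159084-109159145. Their first 30 bases follow, with the shared part in capitals.
Cdkn2c A_51_P513719: tctcactgacctcacactgtCCGTTAGTTG
Cdkn2c A_51_P513720: CCGTTAGTTGGTTGGCTGTCCGTTTCACTA
The single Cdkn1a probe lies at chr17:28828096-28828155 on the plus strand and was printed in 10 copies. Its first 30 bases follow.
Cdkn1a A_51_P363947: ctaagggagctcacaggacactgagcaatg
The files do not annotate these positions as exon, intron or UTR.

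Levels are given as a percentage of the array's 75th-percentile signal, taken over the 6576 probes that were well above background on all 8 arrays. "Well above background" is the scanner software's own flag. It was carried by 26.0% to 42.4% of the spots per array. The arrays correlated moderately with each other, with a mean r of 0.625 to 0.699 over 6188 probes. All NrasG12D/G12D arrays and NrasG12D/+ replicate 3 lay on one slide, and all Nras+/+ arrays and NrasG12D/+ replicates 1 and 2 on the other. NrasG12D/G12D and Nras+/+ cells therefore never shared a slide, and for that pair slide and genotype are separated only through the NrasG12D/+ arrays. Of 15 HSC markers, Ly6a, Slamf1 and Fgd5 were among those above background on all 8 arrays, whereas Procr, Tek and Gata2 were so on none and Kit on 1. The number above background per array was 6 to 8 in NrasG12D/G12D, 7 to 10 in NrasG12D/+ and 8 to 9 in Nras+/+, and the summed level of the 15 was 129% to 4698%, 162% to 455% and 458% to 464% in the same order. Markers of other cells were also above background on every array, among them 4 of 7 B cell genes, 3 of 6 megakaryocyte genes, 2 of 6 monocyte genes and 2 of 8 T and NK cell genes. Their part in the results was not tested. In such bulk RNA, fewer cells that express a gene and less RNA per cell cannot be told apart.

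No CDK inhibitor probe passed the threshold (adjusted p at or under 0.05) in any comparison. The test was limma over all probes, with Benjamini-Hochberg adjustment. The members' adjusted p-values ran from 0.711 to 0.932 for NrasG12D/G12D against Nras+/+, from 0.816 to 0.947 for NrasG12D/+ against Nras+/+, and from 0.826 to 0.975 for NrasG12D/G12D against NrasG12D/+. No probe on the array passed either, so the share called was 0.0% of 18327, 18382 and 18333 probes in the same order. Without adjustment, 1 member probe (Cdkn1b A_51_P146126) had a p under 0.05 in NrasG12D/G12D against Nras+/+, against 6.55% of all probes, and none did in the other comparisons, against 4.71% and 6.01%. In NrasG12D/G12D against Nras+/+, 5 of the 7 member probes had a higher mean, against 35.4% of all probes (the overlapping Cdkn2c probes are counted separately). In NrasG12D/+ against Nras+/+ the count was 3 of 7, against 42.2%, and in NrasG12D/G12D against NrasG12D/+ it was 4 of 7, against 41.2%. The median over all probes lay below 0, at -0.46, -0.25 and -0.22 on the log2 scale in the same order, while the member probes' medians were 0.50, -0.26 and 0.37. Arrays of 2 genotypes did not overlap for 1 member probe on the higher and 1 on the lower side in NrasG12D/G12D against Nras+/+ (5.9% and 23.2% of all probes), and for 1 on the higher and 0 on the lower side in NrasG12D/+ against Nras+/+ (9.1% and 16.1%). In NrasG12D/G12D against NrasG12D/+ there were 0 on either side (2.8% and 9.18%).

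**Figure D1:**
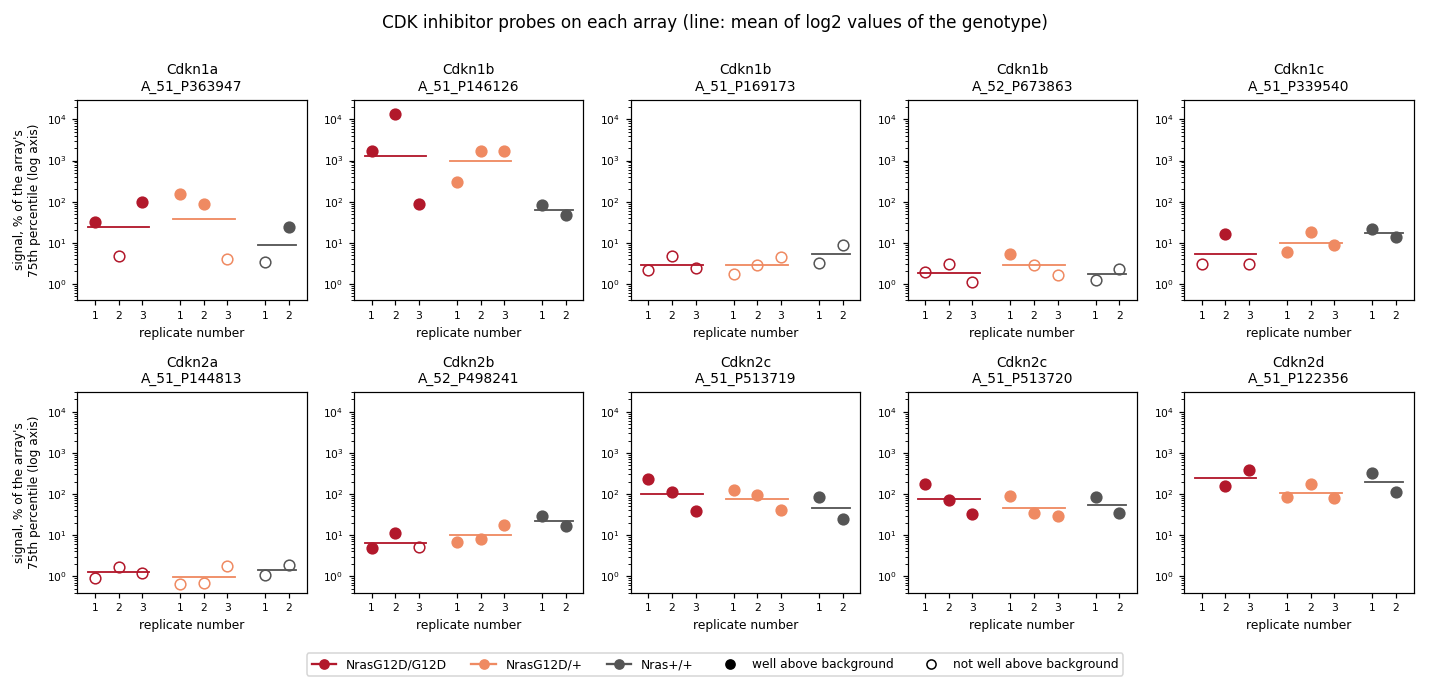
Signal of the 10 CDK inhibitor probes on each array, as a percentage of the array's 75th percentile on a log axis, with filled points well above background, open points not, and lines at the mean of the log2 values per genotype. Cdkn1b A_51_P146126 spans 46.2% to 13605%, Cdkn2a stays between 0.653% and 1.83% with no filled point, and genotypes overlap in most panels.

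Cdkn1a, whose product p21 is the classical effector of p53 and stops cells before S phase, was well above background on some arrays and not on others within every genotype. Its level was 32.1%, 4.74% and 99.3% in NrasG12D/G12D replicates 1 to 3, 150.0%, 87.7% and 4.10% in NrasG12D/+ replicates 1 to 3, and 3.40% and 23.5% in Nras+/+ replicates 1 and 2. The groups overlapped, and each held 1 array on which the probe was not above background, namely NrasG12D/G12D replicate 2, NrasG12D/+ replicate 3 and Nras+/+ replicate 1. Of the 10 copies of the probe, all 10 were above background on the other 5 arrays, against 0, 0 and 2 on these 3.

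The copies show how precisely one array read this gene. On the 5 arrays with signal, the log2 values of the copies had an SD of 0.04 to 0.19, and on the other 3 of 0.52 to 0.76. Between arrays of one genotype the SD was 2.43, larger than for 93.0% of the tested probes, whose median was 1.06. The highest array was at least 19.3-fold above each of the 3 arrays without signal above background, a bound set by the lowest signals detectable there. The 2 arrays with the largest share of spots above background, NrasG12D/+ replicates 1 and 2 with 41.0% and 42.4%, were among the 3 highest for Cdkn1a, but Nras+/+ replicate 1, with 36.0%, was among those without signal above background. The part of array quality in this spread was not tested.

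**Figure D2:**
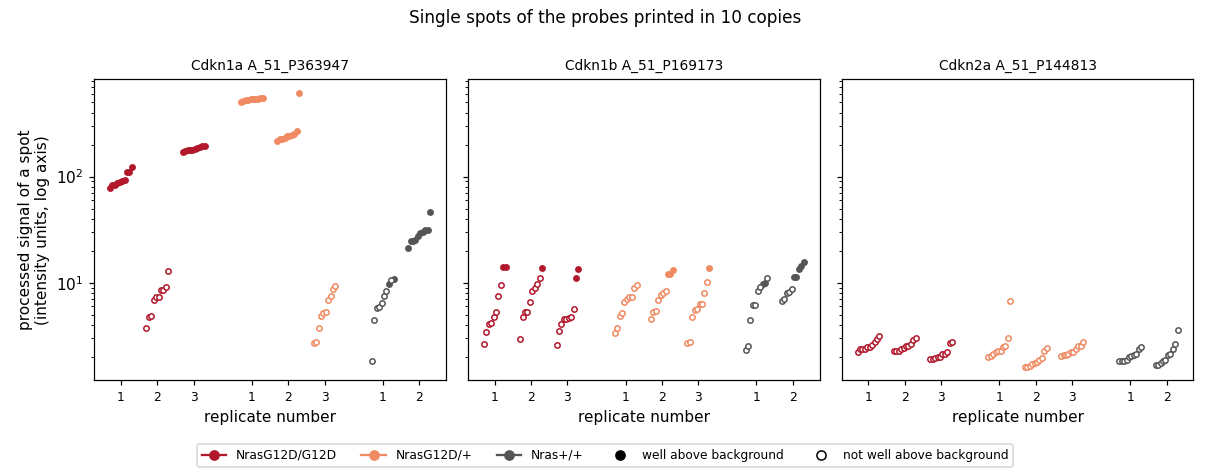
Processed signal of every spot, on a log axis and not scaled between arrays, for the 3 probes printed in 10 copies; copies are sorted by signal within an array, filled points were well above background, and spots flagged as outliers are included. Cdkn1a copies lie close together and high on 5 arrays and near background on 3, Cdkn1b A_51_P169173 has 16 of 80 spots above background, and Cdkn2a has 0 of 80.

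By mean, Cdkn1a was highest in NrasG12D/+ cells, then NrasG12D/G12D, then Nras+/+, but neighbours in this order did not differ beyond their spread. NrasG12D/G12D averaged -2.02 ± 2.22 and Nras+/+ -3.48 ± 1.97 on the log2 scale (SD, n = 3 and 2). The difference was 1.47 (SE 1.78, 95% interval -2.55 to 5.49, limma adjusted p = 0.823). NrasG12D/+ averaged -1.40 ± 2.80 (SD, n = 3), which was 2.08 above Nras+/+ (SE 1.78, interval -1.94 to 6.10, limma adjusted p = 0.818). The difference of NrasG12D/G12D from NrasG12D/+ was -0.61 (SE 1.59, interval -4.21 to 2.99, limma adjusted p = 0.959).

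Single arrays decided these values. Without Nras+/+ replicate 1 the difference of NrasG12D/G12D from Nras+/+ came to 0.07, and without Nras+/+ replicate 2 to 2.86. Without NrasG12D/+ replicate 3 that of NrasG12D/+ from Nras+/+ came to 3.68, and without Nras+/+ replicate 1 to 0.68. With the slide as a block the differences were 6.27 for NrasG12D/G12D against Nras+/+, 3.68 for NrasG12D/+ against Nras+/+ and 2.59 for NrasG12D/G12D against NrasG12D/+, the last with its sign turned. By design, the 3.68 is also the NrasG12D/+ difference from Nras+/+ within slide 1. The 2.59 is that of NrasG12D/G12D from the single NrasG12D/+ array within slide 2.

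Cdkn1b encodes p27, which accumulates in resting cells and is degraded after phosphorylation as they enter S phase. Its probe farthest downstream, A_51_P146126, was above background on all 8 arrays, at 1662%, 13605% and 88.6% in NrasG12D/G12D replicates 1 to 3, 307%, 1661% and 1703% in NrasG12D/+ replicates 1 to 3, and 81.7% and 46.2% in Nras+/+ replicates 1 and 2. Every mutant array was above both Nras+/+ arrays, though NrasG12D/G12D replicate 3 exceeded Nras+/+ replicate 1 by little. It is the member counted above as not overlapping on the higher side in both comparisons with Nras+/+.

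The mean difference from Nras+/+ was 4.36 in NrasG12D/G12D (means 3.66 ± 3.65 and -0.70 ± 0.58, SD, n = 3 and 2; SE 1.82, 95% interval 0.25 to 8.47). This was the one member value with an unadjusted p under 0.05 (limma adjusted p = 0.711). In NrasG12D/+ cells (3.25 ± 1.42, SD, n = 3) the difference from Nras+/+ was 3.96 (SE 1.82, interval -0.15 to 8.07, limma adjusted p = 0.816). The mutant genotypes overlapped and differed by 0.40 (SE 1.62, interval -3.28 to 4.08, limma adjusted p = 0.975).

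The 2 values against Nras+/+ kept their sign without any single array, at 2.64 (without NrasG12D/G12D replicate 2) to 6.27 (without NrasG12D/G12D replicate 3) for NrasG12D/G12D and 3.54 to 4.78 for NrasG12D/+. Blocked by slide they were 3.11 and 3.54, the latter by design the same as the value within slide 1. The difference between the mutant genotypes turned to -0.43 with the slide as a block, by design the same as the value within slide 2. The probe's SD within genotypes was 2.49, larger than for 93.5% of the tested probes, and its highest array exceeded its lowest 295-fold.

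The other Cdkn1b probes did not show this pattern, and neither had enough signal to be tested. The coding probe A_51_P169173 read 2.14%, 4.78% and 2.46% in NrasG12D/G12D, 1.71%, 2.90% and 4.55% in NrasG12D/+, and 3.24% and 8.75% in Nras+/+. Its highest value was thus in an Nras+/+ array, where 5 of 10 copies were above background, and it counted as above background on none of the 8 arrays. A_52_P673863 read 1.93%, 2.99% and 1.12% in NrasG12D/G12D, 5.21%, 2.93% and 1.61% in NrasG12D/+, and 1.27% and 2.32% in Nras+/+, with NrasG12D/+ replicate 1 alone above background. The higher level in mutant cells therefore rests on 1 of 3 probes of the gene, and on 1 spot of it per array.

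Cdkn1c encodes p57, an imprinted gene expressed from the maternal copy and the Cip/Kip member most closely tied to HSC quiescence. Its probe, at chr7:143268238-143268297 on the minus strand, read 3.08%, 16.3% and 2.96% in NrasG12D/G12D, 5.86%, 18.0% and 8.98% in NrasG12D/+, and 21.7% and 14.1% in Nras+/+. It was above background on both Nras+/+ arrays and all 3 NrasG12D/+ arrays, but on 1 of 3 NrasG12D/G12D arrays. Replicate 2 of NrasG12D/G12D overlapped the Nras+/+ arrays, and the other 2 were the lowest of the 8.

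The means stepped down with the number of mutant alleles, -4.24 ± 1.40 in NrasG12D/G12D, -3.35 ± 0.82 in NrasG12D/+ and -2.52 ± 0.44 in Nras+/+ (log2 scale, SD, n = 3, 3 and 2), without any neighbours differing beyond their spread. The NrasG12D/G12D mean includes replicates 1 and 3, on which the probe was not above background. The median difference of all probes from Nras+/+ had the same order, with -0.46 in NrasG12D/G12D and -0.25 in NrasG12D/+. NrasG12D/G12D differed from Nras+/+ by -1.72 (SE 0.96, 95% interval -3.89 to 0.45, limma adjusted p = 0.711) and NrasG12D/+ from Nras+/+ by -0.83 (SE 0.96, interval -3.00 to 1.34, limma adjusted p = 0.843). NrasG12D/G12D differed from NrasG12D/+ by -0.89 (SE 0.86, interval -2.84 to 1.05, limma adjusted p = 0.866). With normexp background correction the value for NrasG12D/G12D against Nras+/+ shrank to -0.59, and for NrasG12D/G12D against NrasG12D/+ to -0.06. Without NrasG12D/G12D replicate 2 these values were -2.53 and -1.70, whereas without NrasG12D/G12D replicate 3 the comparison with Nras+/+ gave -1.30.

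Cdkn2a, the locus of p16 and the p53 activator p19ARF, was near background throughout. Its probe, at chr4:88745872-88745931 on the minus strand and printed in 10 copies, was above background in 0 of 80 spots, and 76 of these held a surrogate value that the scanner software enters for signals near background. The readings, 0.930%, 1.71% and 1.18% in NrasG12D/G12D, 0.653%, 0.686% and 1.81% in NrasG12D/+, and 1.07% and 1.83% in Nras+/+, are thus bounds and have no order. Transcripts below the detection limit of the arrays would not have been seen.

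Cdkn2b, the neighbour of Cdkn2a, encodes p15, an inhibitor induced by TGF-beta. Its probe, at chr4:88777764-88777823 on the minus strand, read 4.96%, 11% and 5.23% in NrasG12D/G12D, 6.88%, 7.97% and 17.7% in NrasG12D/+, and 29.2% and 16.5% in Nras+/+. It was above background on every array except NrasG12D/G12D replicate 3. All 3 NrasG12D/G12D arrays were below both Nras+/+ arrays, a separation on the lower side that 23.2% of all probes also showed. NrasG12D/+ replicate 3 overlapped Nras+/+ replicate 2.

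As for Cdkn1c and for the median of all probes, the means followed the number of mutant alleles, with -3.92 ± 0.64 in NrasG12D/G12D, -3.34 ± 0.74 in NrasG12D/+ and -2.19 ± 0.58 in Nras+/+ (log2 scale, SD, n = 3, 3 and 2). The share of all probes with this order was not counted. The difference from Nras+/+ was -1.74 in NrasG12D/G12D (SE 0.79, 95% interval -3.52 to 0.05, limma adjusted p = 0.711) and -1.15 in NrasG12D/+ (SE 0.79, interval -2.93 to 0.63, limma adjusted p = 0.816). NrasG12D/G12D differed from NrasG12D/+ by -0.59 (SE 0.70, interval -2.18 to 1.01, limma adjusted p = 0.888). The NrasG12D/G12D value against Nras+/+ was -0.74 with normexp correction and -3.00 when blocked by slide. With normexp correction the value for NrasG12D/G12D against NrasG12D/+ turned to 0.04. Within slide 2, NrasG12D/G12D stood -1.43 from the NrasG12D/+ array. Within genotypes this was one of the steadier member probes, with an SD of 0.67, larger than for 17.9% of the tested probes.

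Cdkn2c encodes p18, and both of its probes were above background on all 8 arrays. A_51_P513719 read 228%, 114% and 38.4% in NrasG12D/G12D, 123%, 95.2% and 39.8% in NrasG12D/+, and 85.9% and 24.8% in Nras+/+. A_51_P513720 read 179%, 73.5% and 33.2% in NrasG12D/G12D, 87.1%, 34.8% and 29.7% in NrasG12D/+, and 84.3% and 34.3% in Nras+/+. On both probes NrasG12D/G12D replicate 1 was the highest array, and all 3 genotypes overlapped.

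The overlapping probes followed each other across the 8 arrays (r = 0.858), and their log2 values differed by 0.39 ± 0.55 (SD, n = 8), from -0.47 in Nras+/+ replicate 2 to 1.45 in NrasG12D/+ replicate 2. NrasG12D/G12D differed from Nras+/+ by 1.12 on A_51_P513719 (SE 1.0, limma adjusted p = 0.771) and by 0.50 on A_51_P513720 (SE 0.95, adjusted p = 0.888). For NrasG12D/+ against Nras+/+ they disagreed in sign, with 0.75 (SE 1.0, limma adjusted p = 0.862) and -0.26 (SE 0.95, adjusted p = 0.947). NrasG12D/G12D differed from NrasG12D/+ by 0.37 (SE 0.90, limma adjusted p = 0.957) and 0.76 (SE 0.85, adjusted p = 0.879). Without Nras+/+ replicate 2 the NrasG12D/G12D values against Nras+/+ came to 0.22 and -0.15, and when blocked by slide to 2.56 and 1.39.

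Cdkn2d, which encodes the INK4 protein p19, was above background on all 8 arrays. Its probe, at chr9:21038938-21038997 on the minus strand, had an outlier flag on its only spot in NrasG12D/G12D replicate 1, and this array was left out of its fit. The other levels were 153% and 390% in NrasG12D/G12D replicates 2 and 3, 84.0%, 172% and 78.0% in NrasG12D/+, and 331% and 115% in Nras+/+. The groups overlapped. NrasG12D/G12D averaged 1.29 ± 0.95 and Nras+/+ 0.96 ± 1.08 (log2 scale, SD, n = 2 each), a difference of 0.33 (SE 0.96, limma adjusted p = 0.932). That difference was -0.44 without Nras+/+ replicate 2 and 1.09 without Nras+/+ replicate 1. NrasG12D/+ averaged 0.06 ± 0.63 (SD, n = 3), which differed from Nras+/+ by -0.91 (SE 0.87, limma adjusted p = 0.824), or by -1.67 without Nras+/+ replicate 2 and -0.14 without Nras+/+ replicate 1. NrasG12D/G12D differed from NrasG12D/+ by 1.23 (SE 0.87, interval -0.79 to 3.25, limma adjusted p = 0.826).

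**Figure D3:**
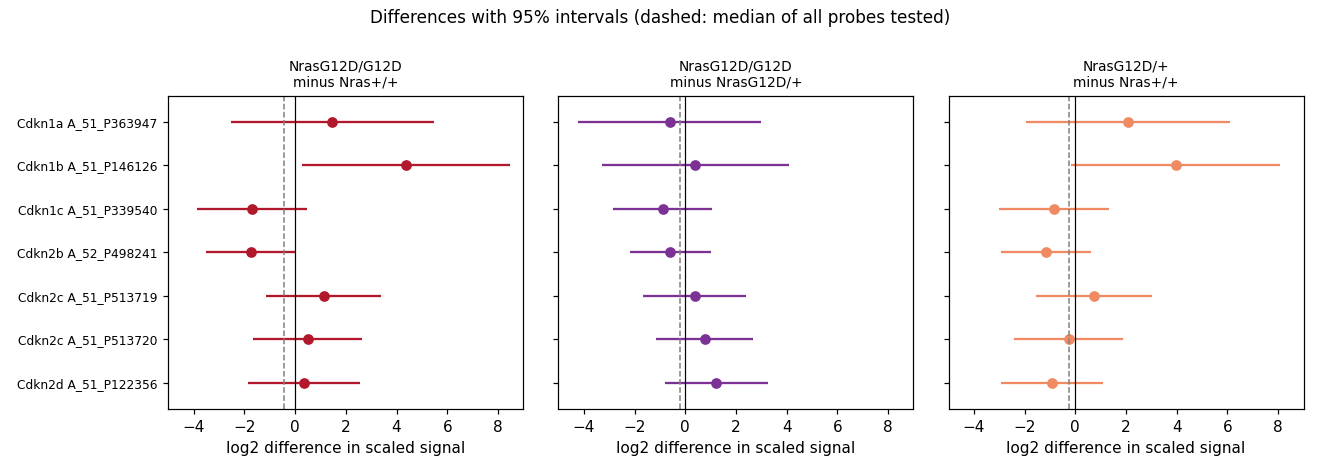
Log2 differences in scaled signal of the 7 tested CDK inhibitor probes in the 3 comparisons, with points at the estimates, bars for the 95% intervals and a dashed line at the median of all probes tested. Of the intervals, the one of Cdkn1b A_51_P146126 in NrasG12D/G12D minus Nras+/+ (0.25 to 8.47) excludes 0, before any adjustment.

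**Figure D4:**
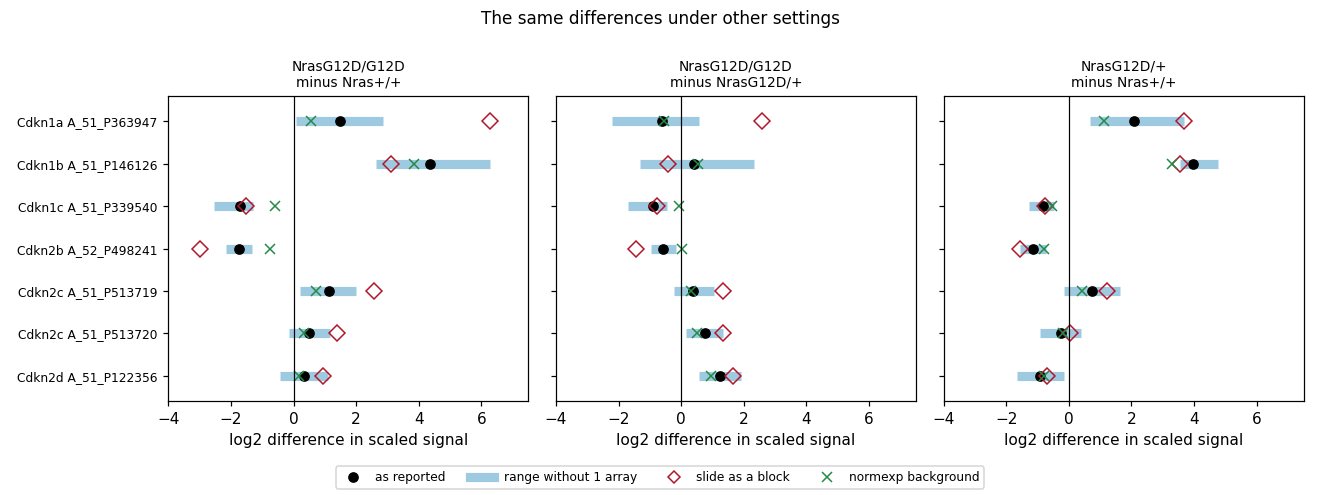
The same log2 differences as reported (black points), over all fits that leave out 1 array (blue bars), with the slide as a block (diamonds) and with normexp background correction (crosses). Cdkn1a moves most with the slide, to 6.27 in NrasG12D/G12D minus Nras+/+, while Cdkn1b A_51_P146126 stays above 0 against Nras+/+ in both mutant genotypes.

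Across the 8 arrays, the inhibitors did not vary as one group. Cdkn1c and Cdkn2b varied together (r = 0.77), and Cdkn1a ran opposite to Cdkn2b (r = -0.78) and to Cdkn1c (r = -0.52). Cdkn1b A_51_P146126 had an r of 0.54 with Cdkn2c A_51_P513719 and of 0.09 with Cdkn1c, and over 7 arrays Cdkn2d had an r between -0.34 and 0.06 with the other members. These values describe 8 arrays that share genotype, slide and signal level. Among 5211 candidate probes of other genes, each above background on all 8 arrays, the profiles most like Cdkn1b A_51_P146126 were those of Krtap9-1 (r = 0.979) and Klhl1 (r = 0.967). For Cdkn2b they were Arhgap4 (0.974) and Cldn18 (0.961), for Cdkn1c Ctdnep1 (0.933) and Ndc80 (0.930), and for Cdkn2d, over 7 arrays, Muc5ac (0.942) and Tbx2 (0.939). For Cdkn2c they were Gpr17 (0.959) and Cpsf4 (0.940) with A_51_P513719, and Ubn2 and Tmub2 (both 0.947) with A_51_P513720. The 2 overlapping Cdkn2c probes thus had different nearest profiles. Each r here is among the highest of all candidates, over only 7 or 8 arrays. How high r would run for unrelated profiles was not tested.

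The genes around the inhibitors were read from lists of their partners, regulators and neighbours, none of which had a gene past the threshold. A gene with several probes is given by the brightest tested one that had a fit in every comparison. Other probes that differ from it are named for some genes only. Of 11 cyclins and CDKs that the inhibitors bind, 7 could be tested. In NrasG12D/G12D against Nras+/+, 2 were higher and 5 lower (median -0.70, against -0.46 for all probes), in NrasG12D/+ against Nras+/+ also 2 and 5 (-0.08, against -0.25), and in NrasG12D/G12D against NrasG12D/+ 4 and 3 (0.14, against -0.22). The INK4 target Cdk4 was above background on 1 array and Cdk2, the main target of p27, on none, so neither was tested. Cdk6, the other INK4 target, read 29.2% and 45.5% in NrasG12D/G12D replicates 1 and 3 (replicate 2 was flagged), 13.5%, 31.3% and 44.4% in NrasG12D/+, and 49.5% and 71.3% in Nras+/+.

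Among the D-type cyclins, Ccnd1 read 39.9%, 21.9% and 58.5% in NrasG12D/G12D, 107%, 92.9% and 357% in NrasG12D/+, and 185% and 503% in Nras+/+, and all NrasG12D/G12D arrays lay below all others. Its difference from Nras+/+ in NrasG12D/G12D was -3.04 (SE 0.90, limma adjusted p = 0.711), and from NrasG12D/+ it was -2.04 (SE 0.81, limma adjusted p = 0.788). Of all probes, 23.2% had every NrasG12D/G12D array below every Nras+/+ array, and 9.18% below every NrasG12D/+ array. Ccnd2 and Ccnd3 differed by 0.52 and -0.94 in NrasG12D/G12D against Nras+/+, and by 0.39 and -0.08 in NrasG12D/+ against Nras+/+, each less than its SE. A second Ccnd2 probe, A_52_P514391, was above background on 1 NrasG12D/G12D array (23.7%) and 1 Nras+/+ array (63.9%) only.

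Downstream of the CDKs, 4 of 13 pocket proteins and E2F factors could be tested. The counts of higher and lower were 3 and 1 against Nras+/+ in both mutant genotypes. The medians were 0.62 in NrasG12D/G12D, against -0.46 for all probes, and 0.42 in NrasG12D/+, against -0.25. Between the mutants the counts were 1 and 3 (-0.34, against -0.22). The Rb1 probe A_51_P136888 was above background on 2 arrays, both NrasG12D/G12D, at 11.9% and 8.43%. The other Rb1 probe, A_52_P419873, was so on Nras+/+ replicate 2 alone, at 13.1%. E2f1, which drives S-phase genes, read 14.1%, 32.7% and 24.7% in NrasG12D/G12D, 25.9%, 25.0% and 67.0% in NrasG12D/+, and 38.0% and 138% in Nras+/+, with a difference of -1.69 between NrasG12D/G12D and Nras+/+ (SE 0.87, limma adjusted p = 0.711). The other E2f1 probe, A_52_P587611, was above background on no array. Rbl2 was above background on 1 array.

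Of 21 genes that activate transcription of the inhibitors, 12 could be tested, with 3 higher and 9 lower against Nras+/+ in each mutant genotype. The medians were -0.35 in NrasG12D/G12D, against -0.46 for all probes, and -0.65 in NrasG12D/+, against -0.25. Above the median of all probes lay 6 of the 12 in NrasG12D/G12D and 4 in NrasG12D/+. Between the mutants the counts were 6 and 6 (-0.05, against -0.22). Trp53, the activator of Cdkn1a, was above background on all 8 arrays, with 351%, 207% and 361% in NrasG12D/G12D, 600%, 627% and 419% in NrasG12D/+, and 474% and 570% in Nras+/+. Every NrasG12D/G12D array lay below every Nras+/+ and every NrasG12D/+ array, as for 23.2% and 9.18% of all probes. The difference was -0.81 from Nras+/+ (SE 0.69, limma adjusted p = 0.764) and -0.86 from NrasG12D/+ (SE 0.61, adjusted p = 0.825). A second Trp53 probe, A_52_P491849, did not repeat this: it was above background on 2 NrasG12D/G12D arrays and 1 NrasG12D/+ array and on no Nras+/+ array. The TGF-beta receptor gene Tgfbr1, upstream of Cdkn2b, read 301%, 1612% and 646% in NrasG12D/G12D, 19.5%, 231% and 28.3% in NrasG12D/+, and 97.4% and 904% in Nras+/+. The mutant genotypes did not overlap, as on the higher side for 2.8% of all probes, and differed by 3.76 (SE 1.22, limma adjusted p = 0.788) on this probe, A_51_P280137. On the second probe, A_52_P4538, they overlapped, with 3.71%, 6.39% and 5.32% in NrasG12D/G12D and 3.64%, 13.5% and 14.7% in NrasG12D/+, against 82.2% and 15.1% in Nras+/+. Foxo3, an activator of Cdkn1b, was above background on 1 array.

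Of 21 repressors, 15 could be tested, with 5 higher and 10 lower in NrasG12D/G12D against Nras+/+ (median -0.21, against -0.46 for all probes). The counts were 9 and 6 in NrasG12D/+ against Nras+/+ (0.16, against -0.25), and 6 and 9 between the mutants (-0.69, against -0.22). Mdm2, which holds p53 in check, was not above background in NrasG12D/G12D. On this probe it was at least 1.59-fold lower there than in Nras+/+ (limma adjusted p = 0.711, measured log2 means -4.89 and -3.54). The bound was 1.37 without NrasG12D/G12D replicate 1 and 1.89 without NrasG12D/G12D replicate 2. Every NrasG12D/G12D array lay below every Nras+/+ array, as for 23.2% of all probes. The other Mdm2 probe, A_52_P469842, was above background on no array. Myc, a repressor of Cdkn1a and Cdkn2b, read 482%, 51.9% and 316% in NrasG12D/G12D, 262%, 107% and 108% in NrasG12D/+, and 94.8% and 114% in Nras+/+, with overlap throughout. The other Myc probes, A_51_P102096 and A_52_P108346, were above background on no array. For the Polycomb gene Bmi1, the 2 probes disagreed. A_51_P121547 was above background on 2 NrasG12D/+ arrays (10.6% and 84.5%) and 1 Nras+/+ array (5.23%) and on no NrasG12D/G12D array. A_52_P39157 was above background on all 8 arrays, but its spot was flagged as an outlier on all NrasG12D/G12D arrays and on NrasG12D/+ replicate 3, which left 17.4% and 63.1% in NrasG12D/+ and 89.5% and 143% in Nras+/+. No level of Bmi1 is therefore given for NrasG12D/G12D cells. A_52_P39157 had no fit for that genotype, so A_51_P121547 stands for Bmi1 in the counts and medians above. Its differences were -0.61 in NrasG12D/G12D against Nras+/+ and -2.14 against NrasG12D/+. Ezh2 was above background on 2 arrays and Gfi1 on none.

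Of 16 genes for turnover of the inhibitor proteins, 15 were on the array and 11 could be tested. The counts of higher and lower were 5 and 6 in NrasG12D/G12D against Nras+/+ (median -0.35, against -0.46 for all probes). They were 2 and 9 in NrasG12D/+ against Nras+/+ (-0.42, against -0.25), and 5 and 6 between the mutants (-0.04, against -0.22). Skp2, the receptor that marks p27 for degradation, read 37.1%, 10.3% and 25.6% in NrasG12D/G12D, 16.2%, 80.1% and 21.2% in NrasG12D/+, and 37.1% and 26.6% in Nras+/+, and the genotypes overlapped. Its cofactor Cks1b was above background on no array. Fbxw7, which marks cyclin E for degradation, was above background on NrasG12D/+ replicate 2 and Nras+/+ replicate 1, at 13.7% and 26.4%.

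Proliferation markers could be tested for 11 of 17 genes. In NrasG12D/+ against Nras+/+, 8 were higher and 3 lower (median 0.49, against -0.25 for all probes). In NrasG12D/G12D against Nras+/+ 2 were higher and 9 lower (-0.63, against -0.46). Between the mutants 3 were higher and 8 lower (-1.12, against -0.22). Of all probes, 42.2%, 35.4% and 41.2% had a higher mean in the same order. Mki67, made only in cycling cells, was above background in NrasG12D/G12D replicate 1 (29.3%) and in NrasG12D/+ replicates 1 and 2 (15.5% and 6.01%), and on no Nras+/+ array. A second Mki67 probe, A_51_P253808, was above background on 1 NrasG12D/G12D array, 2 NrasG12D/+ arrays and no Nras+/+ array, but not on the same arrays. It read 0.863%, 2.03% and 7.55% in NrasG12D/G12D, 4.28%, 0.642% and 83.6% in NrasG12D/+, and 1.02% and 1.54% in Nras+/+.

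**Figure D5:**
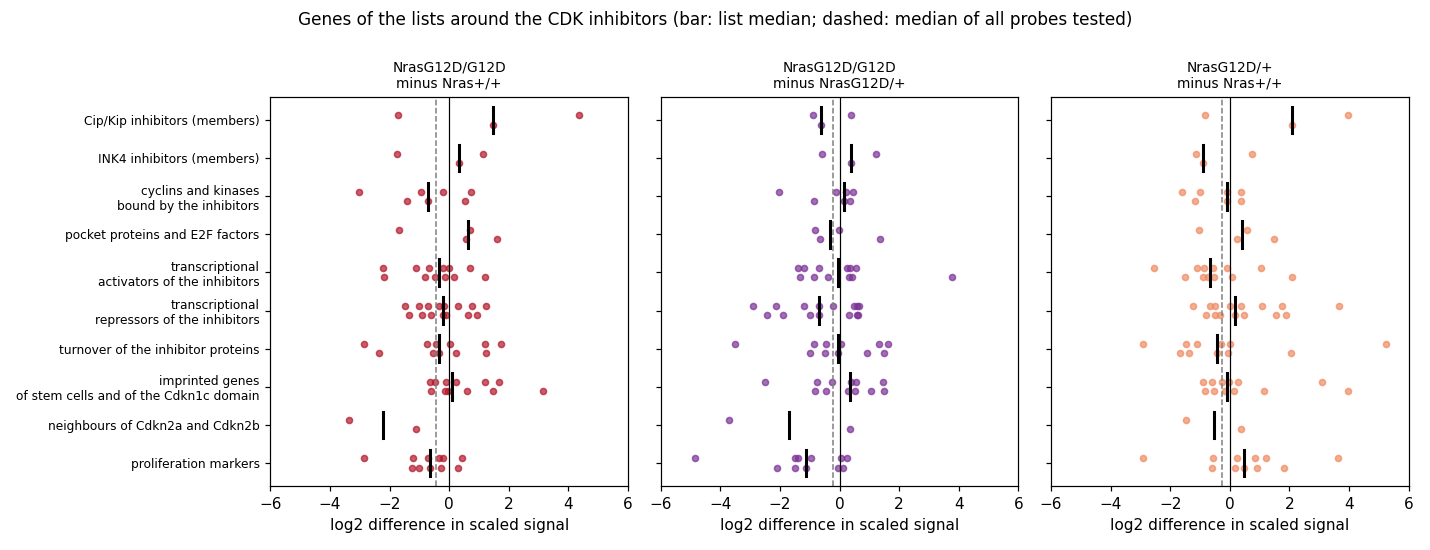
Log2 differences in scaled signal of each tested gene (points) in the lists of inhibitors, partners, regulators and neighbours, with a bar at the list median and a dashed line at the median of all probes tested. Each gene is shown by 1 probe, the brightest with a fit in every comparison. No gene shown passed the threshold, and the proliferation markers have a median of -1.12 in NrasG12D/G12D minus NrasG12D/+ and of 0.49 in NrasG12D/+ minus Nras+/+.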

How the data were processed

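Spot intensities come from the deposited files, made per the file headers with Agilent Feature Extraction 10.5.1.1 (also named in the submitters' processing notes), which subtracted background and detrended each array. They were not scaled between arrays. Flags for spots well above background, outliers and saturation come from the same files. The authors' deposited value table holds a ratio, the processed signal over the array's median, and served as an alternative. Set against the scanner values, its columns are linear, have a median of 1.0 each and are not centred per gene.

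Outlier spots were left out. Log2 signals were averaged over the copies of a probe and scaled to the array's 75th percentile over the 6576 probes above background on all arrays. A probe counts as above background on an array if more than 50% of its spots are flagged so, and was tested if that held on at least 2 arrays (18411 probes). Every probe was fitted by itself in limma 3.58.1 (R 4.3.3), over all 8 arrays with a shared spread (prior SD 1.057 log2 units), two-sided, with Benjamini-Hochberg adjustment over all probes tested and a threshold of 0.05. The fit was tested on simulated data. A gene in a list is represented by the brightest of its tested probes that had a fit in every comparison.

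A bound ("at least N-fold") divides the brighter group's mean by the lowest signal well above background on each array of the dimmer group, or the probe's own where higher. The precision is limited by the number of arrays. Probe names are those of the files, with symbols updated through a RefSeq table. The members, the lists and the alternatives (scaling, background correction, filter, slide, replicate number, single arrays left out) were chosen with earlier results of these data known. Named are all member probes, and, of the lists, genes past the threshold and a set chosen in the same way, whatever their values.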

Additional observations from a re-analysis of the deposited data

How the results depend on the processing

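No CDK inhibitor probe passed the threshold under any alternative (lowest adjusted p 0.543 with all arrays and 0.604 without 1 array, limma). Of 212 log2 differences recomputed under other settings, 204 kept their direction. Some of these could not change, since other filters, 1 probe per gene and only the 2 groups compared reuse the same scaled values. Values within a slide also equal those with the slide as a block by design. The 8 that reversed were, for NrasG12D/+ against Nras+/+, Cdkn2c A_51_P513720 within slide 1 and with the slide as a block (0.03 both) and with the replicate number as a block (0.18); for NrasG12D/G12D against NrasG12D/+, Cdkn1a within slide 2 and with the slide as a block (2.59 both), Cdkn1b A_51_P146126 likewise (-0.43 both) and Cdkn2b with normexp correction (0.04). Without 1 array, counting fits without an array of the third genotype, where no change was possible, 155 of 168 kept their direction. Those that did not ranged, for NrasG12D/+ against Nras+/+, from -0.15 to 1.65 (Cdkn2c A_51_P513719) and from -0.91 to 0.39 (Cdkn2c A_51_P513720); for NrasG12D/G12D against Nras+/+, from -0.15 to 1.15 (Cdkn2c A_51_P513720) and from -0.44 to 1.09 (Cdkn2d); for NrasG12D/G12D against NrasG12D/+, from -2.21 to 0.58 (Cdkn1a), from -1.31 to 2.32 (Cdkn1b A_51_P146126) and from -0.23 to 1.06 (Cdkn2c A_51_P513719). The cause was not tested. Between the deviations of same-numbered replicates from their genotype means, r ran from -0.098 to 0.088. With 2 to 3 arrays per genotype these deviations constrain each other, so they cannot decide whether the numbers pair arrays. With the replicate number as a block no member passed. Cdkn1b A_51_P146126 then gave 5.11, 4.71 and 0.40 in NrasG12D/G12D against Nras+/+, NrasG12D/+ against Nras+/+ and NrasG12D/G12D against NrasG12D/+.

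The count of all probes past the threshold, 0 as reported, was 3 with quantile normalization, 2 with no filter, 1 with the slide as a block and 1 with only the 2 groups compared for NrasG12D/G12D against Nras+/+. For NrasG12D/+ against Nras+/+ it was 1 with the value table and 1 with no filter, and for NrasG12D/G12D against NrasG12D/+ 8 with the slide as a block. Without 1 array it ranged from 0 to 10, 0 to 11 and 0 to 2 in the order NrasG12D/G12D against Nras+/+, NrasG12D/+ against Nras+/+, and the mutants against each other, with 10 and 11 reached without Nras+/+ replicate 2. Of 557 list medians, 498 moved by less than the spread and 59 by more. Limits: 2 to 3 arrays per genotype, and single-spot probes for Cdkn1c, Cdkn2b, Cdkn2c, Cdkn2d and, of Cdkn1b, A_51_P146126 and A_52_P673863. Signals were near background for Cdkn1b A_51_P169173 and A_52_P673863 and for Cdkn2a. Cdkn1a, Cdkn1c and Cdkn2b were not above background on 3, 2 and 1 arrays.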

Other observations

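The chromosomal surroundings of Cdkn1c and of Cdkn2a and Cdkn2b were read as well. Of 18 imprinted genes of stem cells and of the Cdkn1c domain, 17 were on the array and 12 could be tested, and none passed the threshold. In NrasG12D/G12D against Nras+/+, 6 were higher and 6 lower (median log2 difference 0.09, against -0.46 for all probes). In NrasG12D/+ against Nras+/+ the counts were 5 and 7 (-0.09, against -0.25), and in NrasG12D/G12D against NrasG12D/+ 7 and 5 (0.33, against -0.22). H19, a maternally expressed long RNA, read 5.43%, 81.0% and 13.7% in NrasG12D/G12D, 5.44%, 10.1% and 11.9% in NrasG12D/+, and 19.1% and 12.7% in Nras+/+. All NrasG12D/+ arrays thus lay below both Nras+/+ arrays, a separation that 16.1% of all probes also showed. On its second probe, A_52_P571350, these groups overlapped. Meg3, another maternally expressed long RNA, read 8.74%, 7.76% and 157% in NrasG12D/G12D, 4341%, 37.3% and 11.6% in NrasG12D/+, and 17.7% and 12% in Nras+/+. Its highest value came from 1 array, NrasG12D/+ replicate 1. Probe A_52_P391505 was also highest on that array, while on A_52_P196568 it was the lowest, at 4.90%. Of the 3 neighbours of Cdkn2a and Cdkn2b, 2 could be tested. Mtap, an enzyme of methionine salvage, was above background on no NrasG12D/G12D array, on 2 of 3 NrasG12D/+ arrays (43.1% and 44.6%) and on 1 of 2 Nras+/+ arrays (88.0%), so that its comparison with Nras+/+ rests on a single control array. Klhl9 differed from Nras+/+ by -1.10 in NrasG12D/G12D (SE 1.26) and by -1.46 in NrasG12D/+ (SE 1.26).

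Some list genes outside the rule for naming had an unadjusted p under 0.05 and are given here after their values were seen. Pcna, the replication clamp that p21 binds, was above background on 1 of 3 NrasG12D/G12D arrays, on no NrasG12D/+ array and on both Nras+/+ arrays, at 9.56% and 65.4% (limma adjusted p = 0.711 for NrasG12D/G12D and 0.816 for NrasG12D/+ against Nras+/+). It was at least 6.18-fold lower in NrasG12D/+ than in Nras+/+, a bound that was 2.36 without Nras+/+ replicate 2 and 16.2 without Nras+/+ replicate 1. Necdin (Ndn), an imprinted inhibitor of proliferation, differed by 3.98 between NrasG12D/+ and Nras+/+ (SE 1.64, limma adjusted p = 0.816). Fzr1, an activator of the ubiquitin ligase that destroys Skp2, differed by 5.23 between NrasG12D/+ and Nras+/+ (SE 1.90, limma adjusted p = 0.816). Their arrays did not overlap on this probe, A_52_P97309, as on the higher side for 9.1% of all probes. On its other probe, A_52_P486322, they overlapped. Among the repressors, Gfi1b differed by 3.65 between NrasG12D/+ and Nras+/+ (SE 1.42, limma adjusted p = 0.816). Ring1 differed by -2.92 (SE 1.07) and Id1 by -1.91 (SE 0.76) in NrasG12D/G12D against NrasG12D/+ (limma adjusted p = 0.788 for both). Gfi1b was above background on 3 arrays, Id1 on 2 and Ring1 on 5.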
